A study of Mus musculus with 4 samples.

Results

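The genes described here encode the nuclear subunits of the mitochondrial respiratory chain and ATP synthase. They were chosen by symbol alone: Ndufa, Ndufb, Ndufc, Ndufs or Ndufv followed by a digit, Uqcr, Cox4 to Cox8, Atp5, and Sdha, Sdhb, Sdhc, Sdhd and Cycs. Of 18193 genes read by a probe set of their own, 82 met the rule, with 168 probe sets. The array reads a transcript through sets of short probes, and each gene is given here by its probe set with the highest mean. Ndufa11, Ndufb4b, Ndufb4c and Ndufs6 meet the rule too but were read only by probe sets shared with other genes, and are not counted among the 82.

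RNA came from bone marrow-derived macrophages of C57BL/6 mice, cultured over 5 days with 10% serum and with 10% L929 supernatant, which supplies the growth factor that makes marrow cells into macrophages. There were 4 groups with 1 array each. They were wild-type (WT) cells and cells with a double knockout (DKO) of Hes1 and Hey1, each untreated or given 2 ng/ml of lipopolysaccharide (LPS) for 3 h. Hes1 and Hey1 encode transcriptional repressors downstream of Notch, and the study asked which inflammatory genes they control. The sources used here do not say how the alleles were made, or the age and number of the mice.

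With 1 array per group there is no replicate check, no error and no p-value, and the number of arrays limits the precision. The words higher and lower, used as calls, mean that 2 arrays differed by at least 2-fold. Array medians ran from 50.8 to 59.1 intensity units, the highest on the untreated WT array. Of 8 macrophage markers all 8 lay above the floor of 52.9 units on at least 1 array, among them Csf1r at 17830 to 24370 units. Fibroblast, B cell, dendritic cell and mast cell markers stayed under the floor on every array. Of 5 neutrophil markers 1 passed it, S100a8, which reached 465. Striated muscle markers reached at most 83.1 units, T or NK cell markers 83.5 and erythroid markers 64.0. In RNA from a whole culture, fewer cells of a type and less RNA per cell cannot be told apart.

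The respiratory chain moves electrons from food to oxygen in the inner mitochondrial membrane. Complex I takes them from NADH, complex II from succinate, complex III passes them to the small carrier cytochrome c, and complex IV hands them to oxygen. Complexes I, III and IV pump protons, and complex V, ATP synthase, uses the gradient to make ATP. Macrophages given LPS are known to lean on glycolysis, to oxidise succinate at complex II, and to make itaconate, which inhibits it. Many nuclear subunit genes are known targets of the transcription factors NRF1, GABPA, YY1 and ERR alpha.

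Promoter sequence from RefSeq (GRCm38.p6) was matched to 67 of the 82 members. Each window holds 250 bases before and 50 after a gene's start, and 6 motifs were searched on both strands. The NRF1 core, GCGCA and GCGC with any 1 base between them, was in the windows of 15 of 67 members (22.4%), against 5.19% of 27025 genes. The ETS motif CCGGAAG, which GABPA binds, was in 17 (25.4%, against 9.93%). The YY1 motif AAGATGGCG was in 6 (8.96%, against 1.64%) and the ERR motif TCAAGGTCA in 2 (2.99%, against 0.466%). Of motifs that HES and HEY proteins can bind, CACGCG was in 12 members (17.9%, against 10.5%) and the E-box CACGTG in 6 (8.96%, against 8.09%). CACGCG can overlap the NRF1 core, as it does in Sdhd. These are matches of letters, not sites of binding.

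The 250 bases before the start are shown for 5 members that the results below turn on, on the gene's own strand, which is the minus strand for all 5, with motif matches in capitals. Cox6a1 (chr5:115348959-115349208) and Sdhd (chr9:50603850-50604099) hold NRF1 and ETS matches. Ndufb1 (chr12:101975739-101975988) was the member past 2-fold with LPS in WT cells and holds 1 CACGCG match, read as CGCGTG. Atp5md (chr19:47090648-47090897) had the largest LPS decrease among members of at least 500 units and holds 3 CACGCG matches. Past the bases shown, after the start, the window of Atp5md also holds an ETS match and that of Sdhd an ERR match. Cox6b2 (chr7:4753095-4753344) was the member that differed most between genotypes and holds none of the 6 motifs in the whole window.
Cox6a1: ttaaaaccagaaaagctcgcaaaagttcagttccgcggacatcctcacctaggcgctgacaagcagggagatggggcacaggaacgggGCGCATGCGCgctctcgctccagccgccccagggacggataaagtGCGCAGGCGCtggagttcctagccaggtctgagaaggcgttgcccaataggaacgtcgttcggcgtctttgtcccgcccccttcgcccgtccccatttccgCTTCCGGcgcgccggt
Sdhd: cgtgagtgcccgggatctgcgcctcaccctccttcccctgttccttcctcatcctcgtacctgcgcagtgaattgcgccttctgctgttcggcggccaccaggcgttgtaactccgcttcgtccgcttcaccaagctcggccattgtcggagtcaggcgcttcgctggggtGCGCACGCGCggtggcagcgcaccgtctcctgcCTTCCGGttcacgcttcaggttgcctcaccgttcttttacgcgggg
Ndufb1: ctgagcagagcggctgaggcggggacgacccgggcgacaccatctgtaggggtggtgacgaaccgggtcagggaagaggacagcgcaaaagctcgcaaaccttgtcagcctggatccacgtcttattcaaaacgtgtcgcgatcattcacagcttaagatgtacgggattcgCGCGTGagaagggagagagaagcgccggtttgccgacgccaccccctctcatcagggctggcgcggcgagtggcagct
Atp5md: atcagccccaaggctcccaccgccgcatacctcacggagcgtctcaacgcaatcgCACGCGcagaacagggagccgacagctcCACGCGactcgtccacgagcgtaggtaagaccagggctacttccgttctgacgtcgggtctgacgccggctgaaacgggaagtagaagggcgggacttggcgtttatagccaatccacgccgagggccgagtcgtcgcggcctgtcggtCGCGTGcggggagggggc
Cox6b2: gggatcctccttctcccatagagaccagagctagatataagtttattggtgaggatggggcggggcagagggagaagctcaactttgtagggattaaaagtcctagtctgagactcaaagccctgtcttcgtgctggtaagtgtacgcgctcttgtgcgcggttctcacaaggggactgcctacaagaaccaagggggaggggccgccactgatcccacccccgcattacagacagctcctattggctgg

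Most members were bright and nearly level across the arrays. Of the 82, 72 had a mean of at least 500 units, 65 were in the brightest 10% of all measured genes, 76 lay above the floor on all 4 arrays and 3 on none. For the 72, the ratio of the highest to the lowest of the 4 arrays had a median of 1.15, and it stayed under 1.2 in 52 members (72.2%). Among all 6606 genes of at least 500 units and above the floor on every array, the median ratio was 1.32 and 27.4% stayed under 1.2. Among 750 genes inside the middle range of the members' brightness, 4452 to 9559 units, the median was 1.26 and 37.7% stayed under 1.2. The members thus spread less over the 4 arrays than those genes did, which is a description of 4 arrays, since genes are not replicates. The steadiest was Ndufa9, a complex I subunit, at 4478 and 4493 units in WT cells, untreated and with LPS, and 4563 and 4386 in DKO cells.

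**Figure D1:**
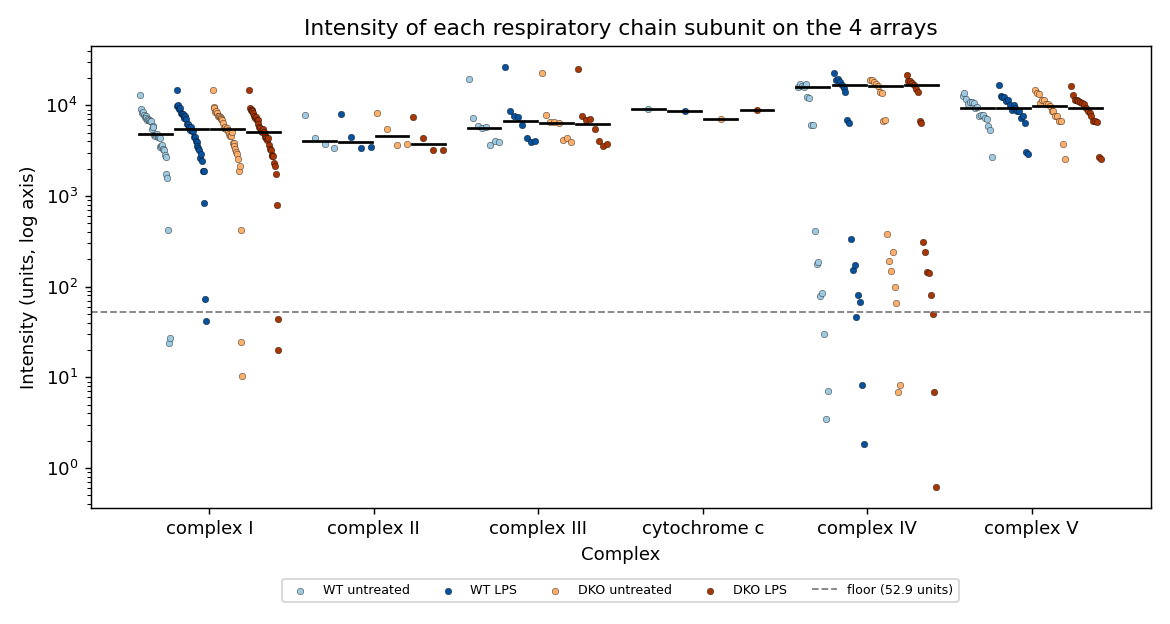
Intensity of each of the 82 members (points, log axis in units) on the 4 arrays, grouped by complex, with black bars at the median of members of at least 500 units and a dashed line at the floor of 52.9 units. Within each complex the bars of the 4 arrays lie close together, and the dim points belong to complexes I and IV.

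Complex I, to which every Nduf symbol was assigned, had 35 members, of which 33 had a mean of at least 500 units. Its 2 brightest were Ndufa1 and Ndufc2, accessory subunits. Ndufa1 read 12954 units untreated and 14823 with LPS in WT cells, and 14659 and 14670 in DKO cells. Ndufc2 read 9207, 9830, 9630 and 9393 in the same order. In both genes the untreated WT array was the lowest. Of the core subunits of the NADH-binding arm, Ndufv1, which binds NADH, was nearly level at 2867, 2877, 2925 and 2731. Ndufs1, an iron-sulfur subunit, varied more between arrays, at 1581, 1869, 2128 and 1731. Ndufs1 was thus highest in untreated DKO cells and lowest in untreated WT cells.

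The 4 subunits of complex II are Sdha, the flavoprotein that oxidises succinate, the iron-sulfur subunit Sdhb, and the membrane anchors Sdhc and Sdhd. Sdha read 4327 units untreated and 4513 with LPS in WT cells, and 5526 and 4343 in DKO cells, so 1 array, untreated DKO, stood above the other 3. Sdhb read 7735, 8076, 8150 and 7453. By their brightest probe sets, all 4 subunits read lower with LPS in DKO cells, by 0.13 to 0.35 on the log2 scale. None reached 1.5-fold. The second probe set of Sdhc gave 0.034, and those of Sdha and Sdhd gave -0.25 and -0.51.

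Complex III had 8 members, all of at least 500 units. Uqcrb, which helps bind ubiquinone, read 19774 units untreated and 26556 with LPS in WT cells, and 23045 and 25251 in DKO cells. Uqcrh, the hinge protein beside cytochrome c1, read 7176, 8710, 7820 and 7633. In both genes the untreated WT array was the lowest. The Rieske iron-sulfur subunit Uqcrfs1 differed in pattern, at 3996, 3973, 4347 and 3560, with the DKO array with LPS lowest. Cytochrome c itself, Cycs, read 9074, 8632, 7114 and 8959, with the untreated DKO array lowest.

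Complex IV had 17 members, 9 of at least 500 units. Cox6a1 read 15936 units untreated and 23025 with LPS in WT cells, and 19065 and 21592 in DKO cells, and Cox6b1 read 17043, 19035, 19005 and 18366. Both are widely expressed subunits. The other 8 members were dim and include the isoforms known from particular tissues. The lung isoform Cox4i2 read 30.1 and 67.3 units in WT cells, untreated and with LPS. In DKO cells it read 66.0 untreated and was under the floor with LPS. The muscle isoform Cox8b read at most 8.27. The muscle isoforms Cox6a2 and Cox7a1 lay above the floor, at 145 to 189 and 314 to 413 units. The testis isoform Cox7b2 stayed under the floor at 0.621 to 8.19 units, and Cox8c, also known from testis, read 178, 154, 190 and 241. Cox7c, a ubiquitous subunit, read only 80.1 to 99.1 units by the brighter of its 2 probe sets. Intensities of different probe sets cannot be set against each other as RNA levels.

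**Figure D2:**
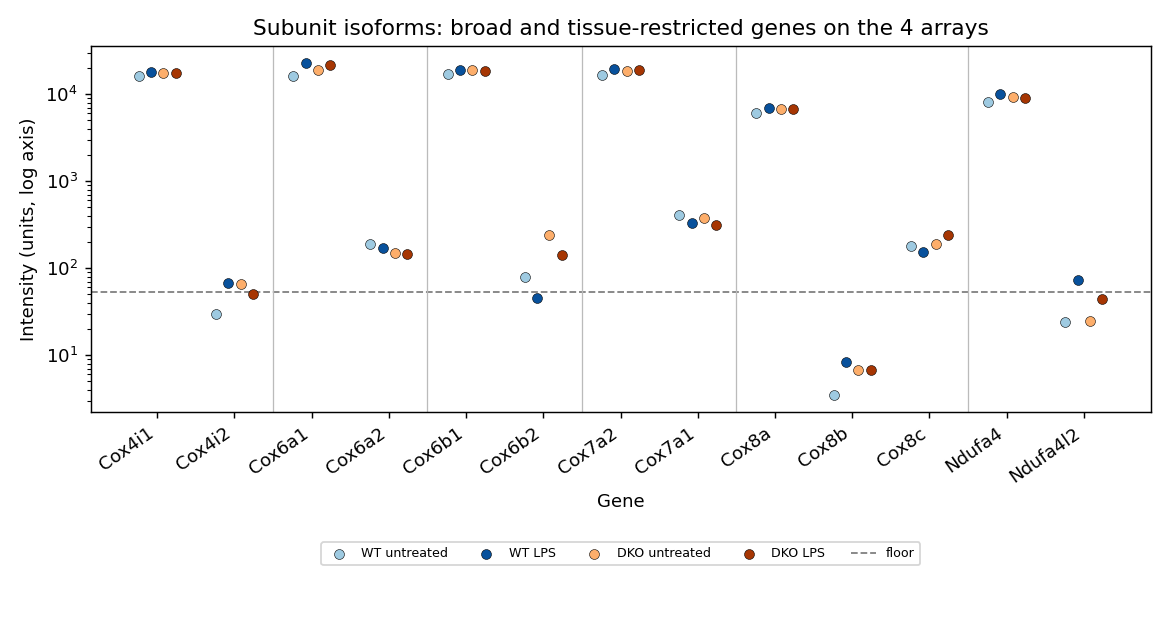
Intensity (log axis, units) on the 4 arrays for subunit genes known to be widely expressed and their tissue-restricted isoforms, with vertical lines between families and a dashed line at the floor of 52.9 units. The restricted isoforms read under 500 units on every array. Cox6b2 is the gene whose WT and DKO points stand apart.

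Complex V had 17 members, all of at least 500 units. Atp5g3, 1 of 3 genes for the rotating c ring, read 12837 units untreated and 16838 with LPS in WT cells, and 14811 and 16324 in DKO cells. Atp5pb, a subunit of the outer stalk, was flatter at 13658, 12809, 13680 and 13161. The catalytic subunit gene Atp5b read 10529, 9987, 10462 and 10539, within 1.06-fold on all arrays. Atp5md, a small membrane subunit of the synthase dimer, went its own way at 5386, 3085, 3765 and 2723, highest in untreated WT cells.

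The comparison of LPS with no treatment in WT cells asks which subunits respond to LPS. Of 79 members above the floor on at least 1 of the 2 arrays, 1 was higher and 0 lower. Of 11489 genes 3.36% were higher and 3.41% lower, 6.77% in all. Past 1.5-fold lay 2 members, against 19.8% of genes. The one called was Ndufb1, a small accessory subunit of complex I. It read 418 units in untreated WT cells and 847 with LPS, 2.03-fold, and 419 and 792 in DKO cells, 1.89-fold. Both LPS arrays were thus above both untreated arrays. Of the 79, 61 (77.2%) stayed within 1.2-fold, against 49.1% of all genes.

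Small shifts in WT cells were mostly upward as the values were deposited, but not under every scaling. The member median was 0.088 (log2), with 57 members above 0 and 22 below, against a median of -0.086 for all genes and 0.11 for the 750 genes of like brightness. After quantile normalization the median was -0.026 with 60.8% of members below 0, after cyclic loess it was 0.015 with 43.0% below, and relative to genes of like brightness it was -0.0030 with 51.9% below. Among members of at least 500 units, complex III had a median of 0.26, complex IV 0.17, complex I 0.094, complex V 0.085 and complex II 0.039. The largest differences after Ndufb1 among members of at least 500 units were those of Cox6a1 (0.53) and Uqcrb (0.43). The second probe set of Cox6a1 gave only 0.020. In complex III those of Uqcrb (-0.25), Uqcrc2 (-0.145) and Uqcrq (-0.070, near the floor) were below 0. Those of Uqcr10 (0.036) and Uqcrh (0.49) were above 0. Among dim members Ndufa4l2 was at least 1.39-fold higher. On the other side were Atp5md at -0.80, 1.75-fold lower, and, among dim members, Cox6b2, at least 1.48-fold lower. Among genes at large the WT difference grew with brightness, from a median of -0.12 between 500 and 1000 units to 0.30 above 16000 units. Members between 4000 and 8000 units had a median of 0.090 and all genes in that band 0.087. The 8 macrophage markers had a median of 0.35, among them Csf1r at 0.41 and Cd68 at 0.43, and their summed level was 81447 and 120106 units in WT cells, untreated and with LPS, and 101407 and 127804 in DKO cells. The part of brightness in the members' shift was not tested beyond these values.

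In DKO cells 0 members passed 2-fold with LPS among 78 measured, against 9.43% of 11240 genes (4.66% higher and 4.77% lower). Past 1.5-fold lay 2, against 23.5% of genes. Ndufb1 came closest, and Cox6b2 was 1.73-fold lower, from 242 to 140 units. The member median was -0.052, with 24 above 0 and 54 below, against -0.10 for all genes and -0.026 for genes of like brightness. Complex II had a median of -0.20 and complex I -0.080. Complex III stood at -0.030, complex V at -0.035 and the bright members of complex IV at 0.030. Atp5md was again lower, at -0.47, and Cycs higher at 0.33.

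**Figure D3:**
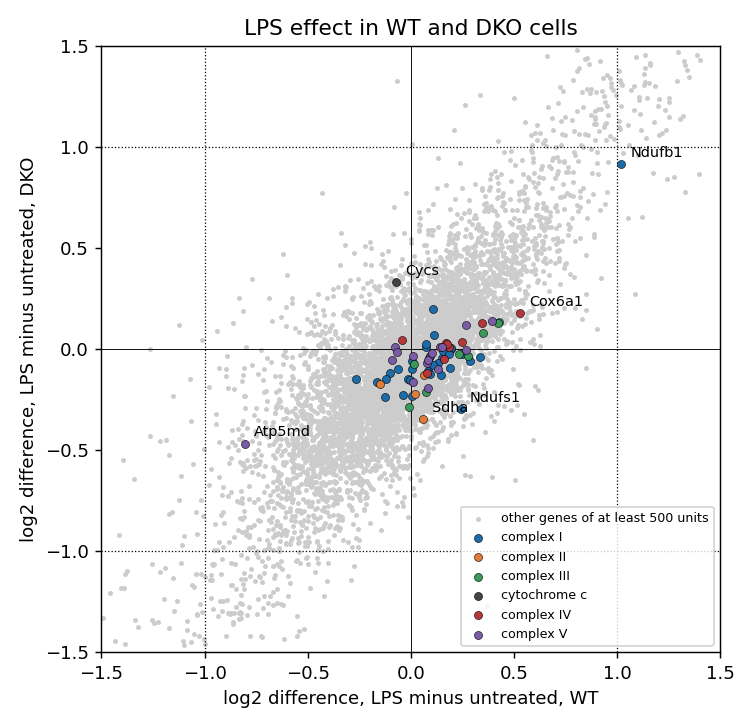
LPS effect (log2, LPS minus untreated) in WT cells on the x axis and in DKO cells on the y axis for 72 members of at least 500 units, coloured by complex, over other genes of that brightness in grey, with dotted lines at 2-fold. The members crowd near 0, apart from Ndufb1 and Atp5md, and 291 genes outside the axes are not drawn.

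**Figure D4:**
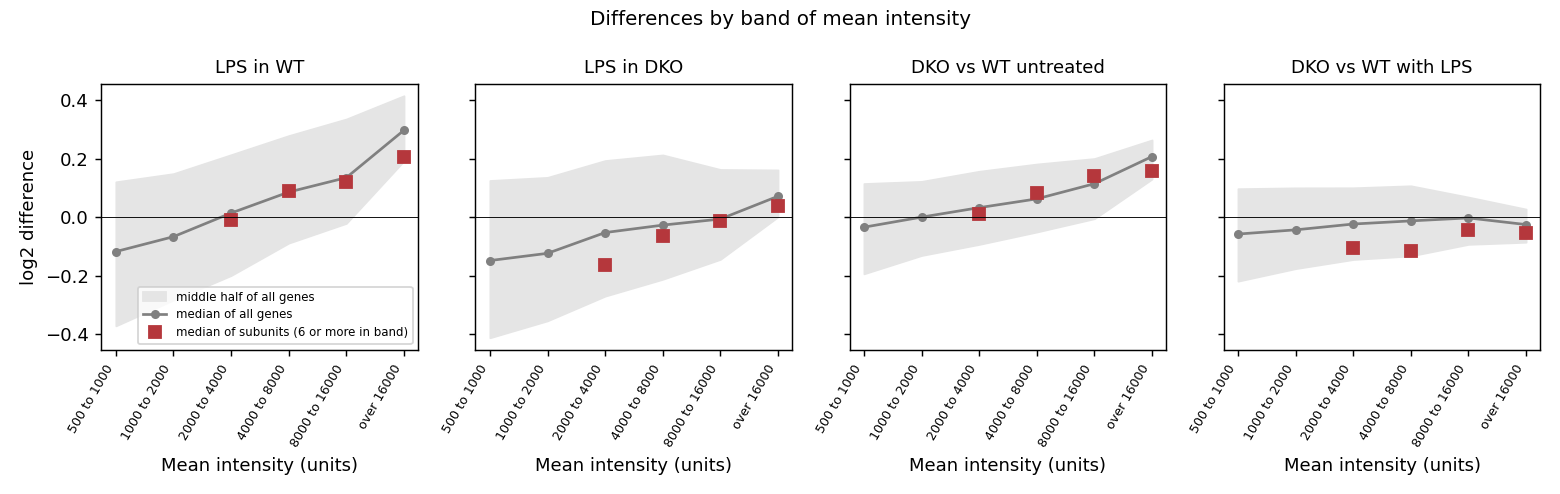
Median log2 difference (y axis) in bands of mean intensity (x axis, units) for all genes (grey line, shading for their middle range from the 25th to the 75th percentile) and for members (red squares, bands with 6 or more members) in the 4 comparisons. In the comparison of LPS in WT cells the squares of the bands at 2000 to 16000 units lie close to the grey line, while for DKO against WT with LPS the squares at 2000 to 8000 units lie below it.

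Without LPS, the genotypes were compared for what loss of Hes1 and Hey1 changes at rest. Of 78 members 1 was higher and 0 lower. Of 11379 genes 0.466% were higher and 0.984% lower, 1.45% in all, and 1 member and 7.33% of genes passed 1.5-fold. It was Cox6b2, the isoform of Cox6b known from testis, at 78.2 units in WT and 242 in DKO cells, 3.10-fold. With LPS it read 45.8 units in WT cells, under the floor, and 140 in DKO cells, at least 2.65-fold higher. Both DKO arrays were therefore above both WT arrays. The gene is dim and has 1 probe set, so no second reading of it was had.

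Other members differed little at rest. The member median was 0.098, with 59 above 0 and 19 below, against -0.017 for all genes and 0.076 for genes of like brightness. The median shrank to 0.012 after quantile normalization, 0.017 after cyclic loess and 0.015 relative to genes of like brightness, with 46.2% to 47.4% of members below 0. The next largest were Ndufs1 (0.43) and Sdha (0.35) on the higher side. On the lower side were Atp5md (-0.52), 1.43-fold lower, and Cycs (-0.35). By their brightest probe sets, all 8 members of complex III and 8 of 9 bright members of complex IV were above 0, with medians of 0.13 and 0.16. Of all genes 47.0% were above 0, and of genes of like brightness 67.8%. Members above 16000 units had a median of 0.16, against 0.21 for all genes in that band. In complex III the second probe sets of Uqcrb (-0.12), Uqcrc2 (-0.088) and Uqcrq (-0.22, near the floor) were below 0. Those of Uqcr10 (0.18) and Uqcrh (0.13) were above 0. All 8 macrophage markers were above 0 too, with a median of 0.32, while the neutrophil marker S100a8 gave -0.71; their part in the members' shift was not tested. This comparison uses the untreated WT array that also enters the LPS effect in WT cells.

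With LPS, DKO and WT cells had nearly the same subunit levels. All 72 members of at least 500 units stayed within 1.2-fold, from -0.20 to 0.20, against 77.1% of 6615 genes of that brightness and 82.7% of the 750 like ones. Of 79 members 1 was higher, Cox6b2, and 0 lower. Of 11236 genes 0.845% were higher and 0.934% lower, 1.78% in all, and 2 members and 9.06% of genes passed 1.5-fold. Cox8c was 1.56-fold higher, 241 against 154 units, while its second probe set, near the floor, gave -0.070. The highest bright members were Ndufs4 (0.20) and Atp5j (0.19), and the lowest Atp5g1 (-0.20) and Ndufa10 (-0.20). Among dim members Cox4i2 was at least 1.27-fold lower and Ndufa4l2, a hypoxia-linked paralog of Ndufa4, at least 1.39-fold lower.

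The small differences under LPS were mostly on the lower side. The median of all 79 was -0.086, with 16 above 0 and 63 below. All genes had a median of -0.040 and genes of like brightness -0.013. Complexes I, II, III and V had medians of -0.11, -0.089, -0.11 and -0.086, and the bright members of complex IV -0.028. By their brightest probe sets, all 4 members of complex II and all 8 of complex III were below 0, against 56.6% of all genes. The second probe sets of Sdhc (0.018), Uqcr10 (0.068), Uqcrc2 (0.054) and Uqcrq (0.061, near the floor) were above 0. Those of Sdha (-0.21), Sdhd (-0.14), Uqcrb (-0.17) and Uqcrh (-0.17) were below 0. In members between 4000 and 8000 units the median was -0.12, against -0.012 for all genes in that band. The median stayed below 0 under each scaling tried. It was -0.083 with equal array medians, -0.088 after quantile normalization and -0.080 after cyclic loess.

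**Figure D5:**
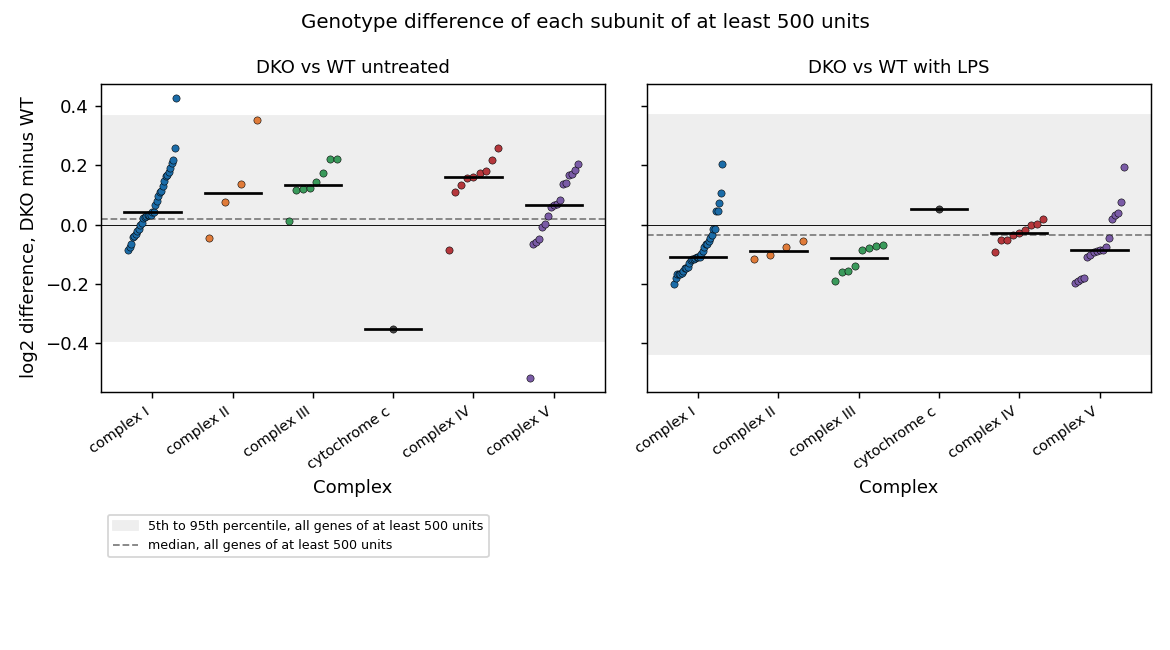
Difference of DKO from WT (log2) without LPS (left) and with LPS (right) for the 72 members of at least 500 units, by complex, with black bars at complex medians. The grey band spans the 5th to 95th percentile of all genes of that brightness. With LPS every member lies inside the band, and most lie below the dashed line of all genes' median at -0.035.

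The difference of the LPS effects, DKO minus WT, asks whether genotype alters the response. Of 79 members 0 passed 2-fold, against 2.69% of 11828 genes (1.84% above 0 and 0.845% below). Past 1.5-fold lay 1, Cox4i2, whose value of -0.67 rests on arrays under the floor, against 11.6% of genes. The member median was -0.17, with 12 above 0 and 67 below, against -0.028 for all genes and -0.094 for genes of like brightness. It was -0.10 after quantile normalization, -0.082 after cyclic loess and -0.059 relative to genes of like brightness. By their brightest probe sets, the 8 genes of complex III lay between -0.31 and -0.091. The second probe sets of Uqcrc2 (0.14) and Uqcrq (0.28, near the floor) were above 0. Those of Uqcr10 (-0.11), Uqcrb (-0.051) and Uqcrh (-0.30) were below 0. Largest among members above the floor on all arrays were Cox8c (0.55), Cycs (0.40) and Atp5md (0.34) on the higher side and Ndufs1 (-0.54) and Sdha (-0.41) on the lower. The second probe set gave -0.43 for Cox8c, near the floor and in the opposite direction, 0.11 for Cycs and -0.39 for Sdha. Whether the responses differ beyond variation between cultures was not tested.

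Readings by a second probe set often differed from the first in sign. For LPS the median gaps between them were larger in size than the member medians of 0.088 and -0.052. For 43 members with 2 probe sets that passed the floor on every array, the LPS effects read by the 2 were a median of 0.18 apart in WT and 0.092 in DKO cells, against 0.26 and 0.20 over 4698 genes. Between genotypes the gaps were 0.101 untreated and 0.102 with LPS. These too were larger in size than the member medians, 0.0977 and -0.0861. For the difference of LPS effects the gap was 0.164, beside a member median of -0.172. For 38 members with both probe sets at 500 units or more, the sign was shared in 24 for LPS in WT, 25 for LPS in DKO, 29 for the genotypes untreated and 21 for the genotypes with LPS. In 10 of the 43 members the second probe set went the other way by more than 0.25 in some comparison. Those of Atp5g2, Cox8c and Uqcrq did so too, but were under the floor on at least 1 array. Atp5o, the stalk subunit OSCP, read 7040, 7564, 6755 and 6665 units by its first probe set and 2397, 1065, 1572 and 1259 by its second, 2.25-fold lower with LPS in WT cells. Sdhd read 3428, 3471, 3767 and 3229 by its first and 814, 353, 455 and 321 by its second, 2.30-fold lower. Ndufb6 read 5428, 6223, 5596 and 5626 by its first and 5240, 3598, 4011 and 3741 by its second. These second probe sets were highest on the untreated WT array, as Atp5md was, while none of the 3 first probe sets was highest there.

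For Cycs the second probe set read 4786 units untreated and 5908 with LPS in WT cells, and 4144 and 5514 in DKO cells. It gave 0.30 for LPS in WT cells where the first gave -0.072, and both were higher with LPS in DKO cells. The second probe set of Uqcrb gave -0.25 for LPS in WT and -0.30 in DKO cells, against 0.43 and 0.13 by the first. Cox6c, a complex IV subunit, gave 0.19 by its first and -0.26 by its second. The other 4 such members, Atp5c1, Ndufa10, Ndufb8 and Ndufs4, had second probe sets of at most 320 units. The direction of the LPS difference in WT cells thus depends on the probe set read in members such as Atp5o, Sdhd, Ndufb6, Uqcrb, Cycs and Cox6c. Ndufb1 and Atp5md have 1 probe set each.

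Ndufb4, a complex I accessory subunit, read under the floor on all arrays (10.3 to 41.8 units) by its own probe set. A probe set shared by Ndufb4, Ndufb4b and Ndufb4c read 5488, 5430, 5497 and 5386 units. A probe set shared by Ndufs6 and Ndufs6b read 4379, 4349, 3746 and 3716, lower on both DKO arrays. Ndufa4, now counted with complex IV, was grouped by its symbol with complex I in the summaries above, as was its paralog Ndufa4l2. Ndufa4 read 8184, 9983, 9338 and 8958 units. Ndufa4l2 read 24.0, 73.7, 24.6 and 44.1, above the floor only in LPS-treated WT cells.

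Of 14 genes beside the chain, 13 could be measured for LPS in WT cells and 14 in DKO cells. In each genotype 4 were higher with LPS and 0 lower. Of all genes 3.36% were higher and 3.41% lower in WT cells, and 4.66% and 4.77% in DKO cells. The list holds genes known to be induced by LPS. AA467197, a paralog of Ndufa4 known to be induced in inflammation, read 1438 units in untreated WT cells and 4016 with LPS, 2.79-fold higher. In DKO cells it read 565 and 2134, 3.78-fold higher with LPS and 2.55-fold lower than WT without LPS. Each DKO array was below the WT array of the same treatment. Acod1, which makes itaconate, read 405, 21438, 191 and 23589 units, and Sod2, the mitochondrial superoxide dismutase, 3269, 17586, 2805 and 20704. Both were thus far higher with LPS in either genotype, and Acod1 was 2.12-fold lower in untreated DKO than WT cells. Hif1a, the hypoxia factor, read 3418, 8355, 3445 and 8629, and Nos2 passed the floor in DKO cells with LPS alone, at 73.1 units.

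Other neighbours stayed under 2-fold. Ndufab1 and Cyc1, subunits of complexes I and III whose symbols fall outside the rule, gave 0.35 and 0.12 for LPS in WT cells and 0.10 and 0.057 in DKO cells. Pdk1, which holds pyruvate dehydrogenase back, gave -0.94 and -0.32. The outer membrane channel gene Vdac1 gave 0.60 and -0.18, and the ADP/ATP carriers Slc25a4 and Slc25a5 gave -0.27 and 0.24 in WT cells. Hccs, Ppif and Dmac2l gave 0.034, 0.32 and -0.21 in WT cells. Of the subunits encoded in mitochondrial DNA only ND5 was measured, at 17778, 20334, 18084 and 15863 units, lowest in DKO cells with LPS.

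Assembly factors, which put the complexes together, had medians of -0.11 with LPS in WT and -0.18 in DKO cells. Of 49 above the floor, 2 were lower than untreated by 2-fold in WT cells, Tmem126b (-1.05) and Coa4 (at least 2.42-fold), and in DKO cells 1 was higher, Ttc19 (1.09 on the log2 scale), and 1 lower, Coa4. Of all genes 3.41% were lower in WT cells, and 4.66% were higher and 4.77% lower in DKO cells. None passed 2-fold between genotypes. Tmem126b builds complex I, Coa4 complex IV, and Ttc19 maintains complex III. All 3 were dim, at most 197 units.

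Among 23 regulators above the floor of mitochondrial biogenesis and of mitochondrial DNA, 1 was lower with LPS in WT cells and 0 higher, and in DKO cells 2 were lower and 1 higher, beside the same shares of all genes. The one lower in WT cells was the coactivator gene Ppargc1b, 3.05-fold lower, from 247 to 80.9 units, and in DKO cells it went from 200 units to below the floor, at least 3.78-fold lower. In DKO cells the polymerase subunit gene Polg2 was also lower (-1.26) and Esrra, which encodes ERR alpha, was 2.02-fold higher. Esrra read 609, 612, 431 and 872 units by its first probe set, but its second read 77.0, 167, 55.2 and 130 and was higher with LPS in both genotypes. Nrf1 stood at 0.57 and 0.97, and Gabpa at -0.15 and 0.42. Ppargc1a was under the floor on all arrays.

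Mitochondrial ribosomal proteins, which translate the subunits encoded in mitochondrial DNA, had medians of 0.028 with LPS in WT and -0.092 in DKO cells over 76 genes. Of these Mrpl52 was higher in DKO cells, from 1768 to 4265 units, 2.41-fold, and from 1884 to 3356 in WT cells. For DKO against WT with LPS their median was -0.13, with 59 of 76 below 0, where 56.6% of all genes were below 0. Protein import genes stood at -0.11 in that comparison, with 17 of 23 below 0, and 51 cytosolic ribosomal protein genes at -0.057, with 34 below 0. None of these differences between lists was tested.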

How the data were processed

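Total RNA of 4 macrophage samples was amplified, labelled with biotin and hybridised to mouse arrays, per the labels' protocols. The authors deposited an intensity for each probe set, not on a log scale. Every array had a mean of 500.0 after trimming 2% at either end. The tool that made them was not given in the sources used here. This scaling leaves array medians free to differ.

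Symbols came from the platform annotation, checked through Entrez identifiers against a RefSeq table of GRCm38.p6, and no member's symbol differed. Each gene took its probe set with the highest mean. Values below 52.9 units, the median over all arrays, were raised to it before taking log2, so a difference that involves such a value is a bound.

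With 1 array per group no test was run. The log2 differences were computed in Python 3.11.15 with numpy 2.4.6 and pandas 2.3.3, and cyclic loess in limma 3.58.1. The difference function was tested on simulated data.

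The members and gene lists were chosen with earlier results of these data known. Described with values are the 2 brightest members of each complex, members under the floor, the largest differences in each direction and members past 1.5-fold. So are tissue isoforms and members whose next probe set, above the floor on every array, went the other way by over 0.25. From the other lists these are genes past 2-fold, the largest differences and every measured neighbour of the chain. Ndufa9, Ndufv1, Uqcrfs1, Atp5b, Atp5g1, Atp5j, Cox7c, Gabpa and Ppargc1a fall outside that rule and were added after their values were seen. The second readings of Sdhc, Uqcr10, Uqcrc2 and Uqcrq and the shared probe set of Ndufs6 and Ndufs6b fall outside it too.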

Additional observations from a re-analysis of the deposited data

Results flagged for a closer look

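The median LPS effect over all members had opposite signs in the genotypes, 0.088 in WT and -0.052 in DKO cells, and the difference was not tested. The signs were not opposite after quantile normalization, where the WT median was -0.026, or relative to genes of like brightness, where it was -0.0030. Ndufs1 moved likewise, 0.24 in WT and -0.30 in DKO cells, and Cox8c the other way, -0.20 in WT and 0.34 in DKO cells. The second probe set of Cox8c gave at least 0.25 in WT and -0.18 in DKO cells, opposite in both. It was near the floor, at 33.2 units untreated and 63.0 with LPS in WT cells, and 67.8 and 60.1 in DKO cells. Ndufs1 has 1 probe set. Neither difference was tested.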

How the results depend on the processing

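Of the 5 member medians, 4 kept their sign under all 12 alternatives that gave them: LPS in DKO cells (-0.13 to -0.039), DKO against WT untreated (0.012 to 0.31) and with LPS (-0.11 to -0.044), and the difference of LPS effects (-0.38 to -0.059). With equal array medians the medians moved to 0.30 for LPS in WT cells, 0.31 for DKO against WT untreated and -0.38 for the difference of LPS effects. The medians of all genes moved with them, to 0.12, 0.19 and -0.23, and the members stood 0.18, 0.12 and -0.15 from the median of all genes, against 0.17, 0.12 and -0.14 as reported. The WT LPS median turned to -0.026 after quantile normalization and to -0.0030 when each difference was taken from the median of genes of like brightness, an alternative added after seeing the data, while cyclic loess gave 0.015. The cause was not tested.

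Counts of members past the threshold are small, so 1 gene moves them. For LPS in WT cells the count was 3 with a floor at the 35th percentile, 2 by the second brightest probe set (both lower), 2 at 1.5-fold and 0 at 3-fold. For LPS in DKO cells it was 1 after quantile normalization, cyclic loess or brightness correction and 2 at 1.5-fold. For DKO against WT untreated it was 2 with the lower floor, and 0 with a floor at the 65th percentile, by second probe sets or without dim members. With LPS it was 0 under those last 3 and at 3-fold, and 2 at 1.5-fold. For the difference of LPS effects it was 1 with the lower floor, with an offset of 16 units, by second probe sets and at 1.5-fold. No paired analysis was possible because each group has 1 array.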

Other observations

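Of 18 genes of the TCA cycle, which feeds electrons to complexes I and II, none passed 2-fold in any comparison. The median was -0.025 with LPS in WT and -0.049 in DKO cells. The cytosolic enzyme gene Mdh1 gave -0.81 in WT cells, at 13940 units untreated and 7948 with LPS, and 11222 and 9543 in DKO cells. Dlst, a subunit of the oxoglutarate dehydrogenase complex, gave 0.51 and 0.32.

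Of 18 genes of fatty acid oxidation none passed 2-fold either, and 16 of 18 read lower with LPS in DKO cells, with a median of -0.19, where 60.9% of all genes read lower with a median of -0.10. Cpt1a, which admits fatty acids to mitochondria, gave -0.37 in WT and -0.76 in DKO cells. Acadl, an acyl-CoA dehydrogenase, read 4744 and 4805 units in WT cells and 3260 and 2968 in DKO cells, so both DKO arrays were below both WT arrays.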
